A study of Drosophila melanogaster with 75 samples.

Results

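Heads of courted males, each exposed to a virgin female that had been cauterized, were compared with heads of control males given no female. The comparison takes 10 of the 15 arrays of the series, 5 from courted males (labelled courtship) and 5 from control males, chosen by their titles. All males were virgin isogenized Canton-S Drosophila melanogaster, 5 days old, held in individual vials from the day before. Each array was hybridized with total RNA from 1 pool of 30 heads, and the remaining 5 arrays came from males exposed to a virgin female with which they mated. A male of each group was collected 2 hrs after the mated male had finished copulating. The labels say neither which part of the female was cauterized nor how much the males in her vial courted, and the methods of the study describe the mated and control males only. The comparison asks which transcripts differ in the male head after exposure to a cauterized female, set against no female at all.

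Male courtship in Drosophila is a sequence of orienting, following, tapping, wing song, licking and attempted copulation, driven by smell, taste, sight and touch. The neurons that carry it are specified by the sex-determination genes fruitless (fru) and doublesex (dsx). The head holds the brain and eyes as well as fat body, a tissue of storage and secretion that lies against the brain and takes up hormone and nutrient signals. Because whole heads were used, fewer cells of a type and less RNA per cell cannot be told apart. By the labels males were pooled at random, and by the methods control and mated samples collected together formed pairs, while nothing says so of the courted ones. P-values measure the spread between pools.

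No transcript differed between courted and control heads past the threshold. Of 7637 probe sets with a mean intensity above 100, 0 (0%) were called by limma at an adjusted p under 0.05, and the lowest adjusted p was 0.988. At an unadjusted p under 0.05 there were 252 probe sets (3.30%), fewer than the 381.9 expected if none differed. Of these, 157 (2.06%) were higher and 95 (1.24%) lower in courted heads. A paired test modelled on Cyber-T, with regularized variances, called 0 as well, with 166 at an unadjusted p under 0.05.

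Most differences were small, and they were centred near 0. The median log2 fold change of courted over control was 0.003, 51.5% of probe sets were higher in courted heads, and the median size of a difference was 0.0564 on the log2 scale. The half-width of the 95% confidence interval of a difference had a median of 0.18 log2 units (10th to 90th percentile 0.13 to 0.33) and was under 0.5 for 95.6% of probe sets and under 1 for 98.7%. With 5 arrays per group, a difference smaller than its half-width could not reach even an unadjusted p under 0.05. A call needed a larger one, since p-values were adjusted over all probe sets tested. The difference of 0.44 for the gene l(3)72Dp, with a half-width of 0.14, was not called. In 231 probe sets (3.02%) the courted array was above the control array of its number in all 5 pairs, and in 187 (2.45%) it was below in all 5. All courted arrays were above all control arrays in 26 probe sets (0.340%) and below all of them in 14 (0.183%).

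**Figure D1:**
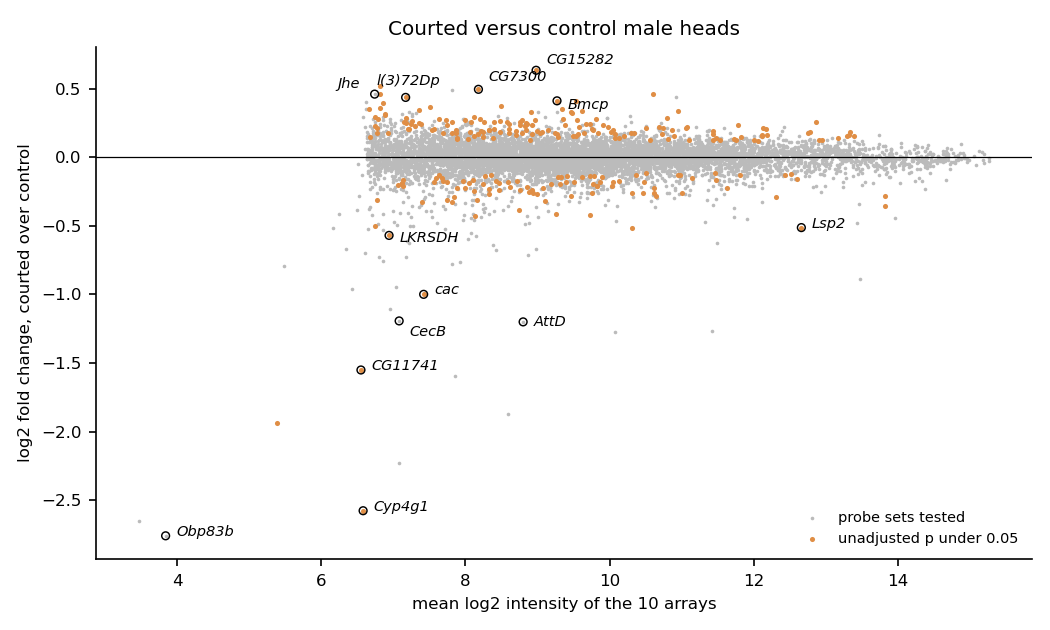
Difference between courted and control male heads (log2 fold change, vertical axis) against the mean log2 intensity of the 10 arrays (horizontal axis), 1 point per probe set tested, with probe sets at an unadjusted p under 0.05 in orange and named genes circled. The cloud is centred on 0.003, and all 13 differences larger than 1 log2 unit lie below 0.

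The array of courted replicate 4 stood apart, as was noticed after the data were seen. It was the highest or the lowest of the 10 arrays in 3354 probe sets (43.9%), against 868 to 2503 for each of the others, and it was lower than all others by more than 1 log2 unit in 45 probe sets, against 0 to 13. The MAS5.0 intensity of the probe set for the 5′ end of eIF-4a was 440.8 on this array and 3501 to 6730 on the other 14 arrays of the series. For the 5′ end of GAPDH it was 1912 against 3775 to 6015, and for the 5′ end of ACTIN 69.5 against 307.9 to 464.4. At the 3′ ends this array was inside the range of the others, with 10313 for eIF-4a (9964 to 14535), 7610 for GAPDH (6993 to 9705) and 821.6 for ACTIN (665.6 to 886.5). Without this array, and with no replicate block, 0 of 7626 probe sets were called, and those at an unadjusted p under 0.05 numbered 181, of which 87 were higher and 94 lower. The share of higher probe sets among them was 62.3% with the array and 48.1% without it. The main values that moved without this array are given with the results, and its part in the others was not tested.

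**Figure D2:**
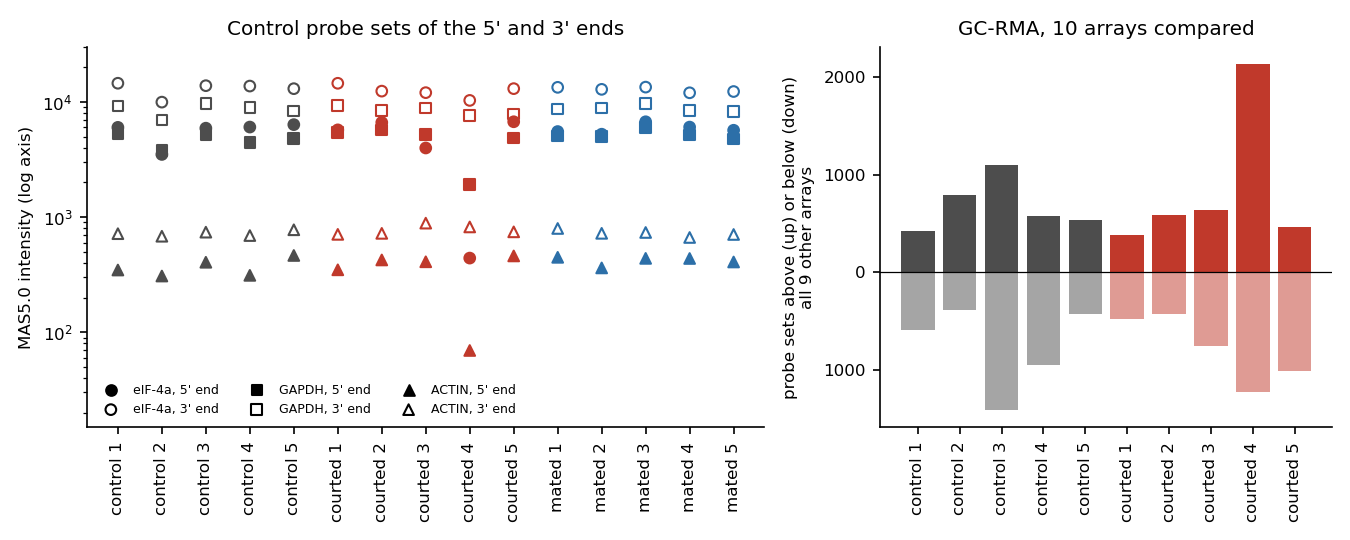
Left, MAS5.0 intensity (logarithmic axis) of the control probe sets for the 5′ end (filled) and 3′ end (open) of eIF-4a, GAPDH and ACTIN on each of the 15 arrays. Right, number of the 7637 probe sets in which each of the 10 compared arrays was above (up) or below (down) all 9 others. Courted replicate 4 has the lowest 5′ intensity for each of the 3 genes and the largest number of extreme values, 2130 above and 1224 below.

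The heads expressed markers of the tissues that the label names. Summed intensities of markers ran from 34716 to 40838 for neurons, from 47746 to 54141 for glia, from 115033 to 130898 for photoreceptors and from 66110 to 71278 for fat body over the 10 arrays, with the ranges of both groups overlapping. Of 11 neuronal markers on the array, 8 were above the threshold. Those below it included elav (mean log2 intensity 3.27 in control and 3.44 in courted heads). No probe set of brp was above it either, with control means of 2.15 to 5.99. The synaptobrevin of neurons, nSyb, was at 9.79 to 11.62. Of markers of other organs, 0 of 8 were above the threshold for salivary gland and proventriculus, 0 of 16 for midgut, 0 of 14 for testis, 1 of 16 for accessory gland and 1 of 13 for females (Yp3). The accessory gland marker above the threshold was Obp56g, at 12.73 to 13.03 in control and 12.81 to 13.12 in courted heads. Markers of the ejaculatory duct and bulb were above it in 3 of 5, with summed intensities of 39732 to 43736 in control and 39173 to 44564 in courted heads. Among these, EbpIII, a protein described from the ejaculatory bulb, was at 14.78 to 14.86 in control and 14.87 to 14.95 in courted heads, a difference of 0.10 (SE 0.05) with no overlap. Courted arrays were above all control arrays in 26 of all 7637 probe sets (0.340%). The part of these markers in the results was not tested. Summed intensities of antennal markers were 24811 to 28862 in control and 27420 to 28398 in courted heads. The brightest of these was Obp19d, at a mean log2 intensity of 14.68. Some antennal transcripts differed between arrays within the control group. Obp83b, an odorant-binding protein of the antenna, was at a log2 intensity of 10.04 and 8.87 in control replicates 2 and 3 and at 2.36 to 2.67 in the other 8 arrays compared. In the same 2 controls lush was also highest, at 8.61 and 7.95. Obp28a did not follow, at 9.63 and 8.14 there and 7.49 to 9.01 in the other controls, and Orco was at background. The study separated heads from bodies by vortexing frozen flies, and what part antennae had in these values was not tested.

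The gene with the lowest p among those higher in courted heads was l(3)72Dp. Its log2 intensity was 7.03, 7.16, 6.69, 6.78 and 7.10 in control replicates 1 to 5 and 7.40, 7.45, 7.27, 7.31 and 7.53 in the courted ones. All 5 courted arrays were above all 5 control arrays, by 0.44 log2 units on average (SE 0.06, 1.35-fold), with an adjusted p of 0.988 in limma. SEs and intervals for courted over control heads are from the fit with the replicate block. Without it the SE of l(3)72Dp was 0.10. The mean of the mated arrays lay in between, at 7.21 ± 0.07 (SD, n = 5), with mated replicate 2 (7.34) above courted replicates 3 and 4.

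Bmcp, a mitochondrial carrier of the uncoupling protein family, had the next lowest p. Control arrays were at 9.14, 9.03, 8.93, 9.22 and 8.99 and courted arrays at 9.47, 9.30, 9.63, 9.57 and 9.42, again with no overlap. The difference was 0.41 log2 units (SE 0.07, adjusted p = 0.988 in limma), and 0.18 at the second probe set of the gene.

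The other genes on the higher side overlapped between the groups when all arrays are set side by side. CG15282 had the largest difference of the 12, with control arrays at 8.94, 8.61, 8.83, 8.40 and 8.53 and courted arrays at 9.50, 8.82, 9.46, 9.08 and 9.63. Only the courted array of replicate 2 fell inside the control range, and the difference was 0.64 (SE 0.12, adjusted p = 0.988 in limma). CG7300 differed by 0.50, with 7.33 to 8.54 in control and 8.08 to 8.73 in courted arrays. Mov10, an RNA helicase, differed by 0.36 and the transcription factor grh (grainy head) by 0.28. Ndf, a nucleosome-destabilizing factor, differed by 0.26, CG2186 by 0.26 and Rab2, a small GTPase of membrane traffic, by 0.25. The remaining 3 were the integrin subunit if (inflated) at 0.24, Tmlh, the first enzyme of carnitine synthesis, at 0.22, and S1P, the protease that releases SREBP, at 0.22. In all 12 of these genes each courted array was above the control array of its number, as in 231 of 7637 probe sets (3.02%). The choice by low p in the fit with the replicate block favours such genes. With dChip PM values the difference for CG2186 was -0.01, and the other 11 kept their direction at 0.03 to 0.58.

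On the lower side, CG11741 had the lowest p and the only difference above 1 log2 unit whose groups did not overlap. Control replicates 1 to 5 were at 7.78, 7.74, 6.75, 7.24 and 7.12, and courted replicates at 5.88, 6.28, 6.09, 6.0 and 4.64. Courted heads were thus 1.55 log2 units lower (SE 0.25, 2.93-fold, adjusted p = 0.988 in limma), and courted replicate 5 was lower than the other 4. Mated heads were at 6.02 to 6.80, and differed from control heads by -1.04 (adjusted p = 0.399 in limma).

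Of the 11 other genes with the lowest p on this side, 4 had groups that did not overlap. Over all 7637 probe sets, courted arrays were below all control arrays in 14 (0.183%), and a choice by low p favours such genes. CG13367 was at 8.55 to 8.64 in control and 8.21 to 8.48 in courted heads, a difference of -0.24 (SE 0.05). CG9444 was at 7.53 to 7.64 and 6.92 to 7.43, a difference of -0.32 (SE 0.08). For CG13796 the ranges were 7.92 to 8.08 and 7.59 to 7.90, and for CG17600 8.27 to 8.45 and 8.07 to 8.26, with differences of -0.22 and -0.20. These control groups were narrow, with an SD of 0.04 to 0.07, against a median SD over all probe sets of 0.126 in control and 0.13 in courted arrays.

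The remaining lower genes included enzymes of amino acid breakdown. LKRSDH, which catalyses the first steps of lysine breakdown, was at 7.48, 7.08, 6.85, 7.44 and 7.27 in control and at 6.88, 6.98, 6.07, 7.06 and 6.28 in courted heads. Each courted array was below the control of its number, but 3 of the 5 lay within the control range, and the difference was -0.57 (SE 0.13, adjusted p = 0.988 in limma). Tdh, a threonine dehydrogenase, was at 8.97 to 9.45 and 8.84 to 9.09, a difference of -0.32. CG4757 differed by -0.35, NimB4, a secreted protein of the Nimrod family, by -0.26, Nepl18, a neprilysin-like peptidase, by -0.22 and CG13295 by -0.20.

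The voltage-gated calcium channel subunit cac (cacophony), named for the courtship song of its mutants, was also among these 12. Control arrays were at 8.34, 7.82, 6.69, 8.79 and 7.92 and courted arrays at 7.01, 6.95, 6.81, 7.15 and 6.66. The courted arrays lay close together, whereas the control arrays were spread widely, and control replicate 3 was as low as the courted arrays. The difference was -1.0 (95% confidence interval -1.58 to -0.42, adjusted p = 0.988 in limma), mated heads were at 6.05 to 8.18, and the second probe set of the gene was at background.

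**Figure D3:**
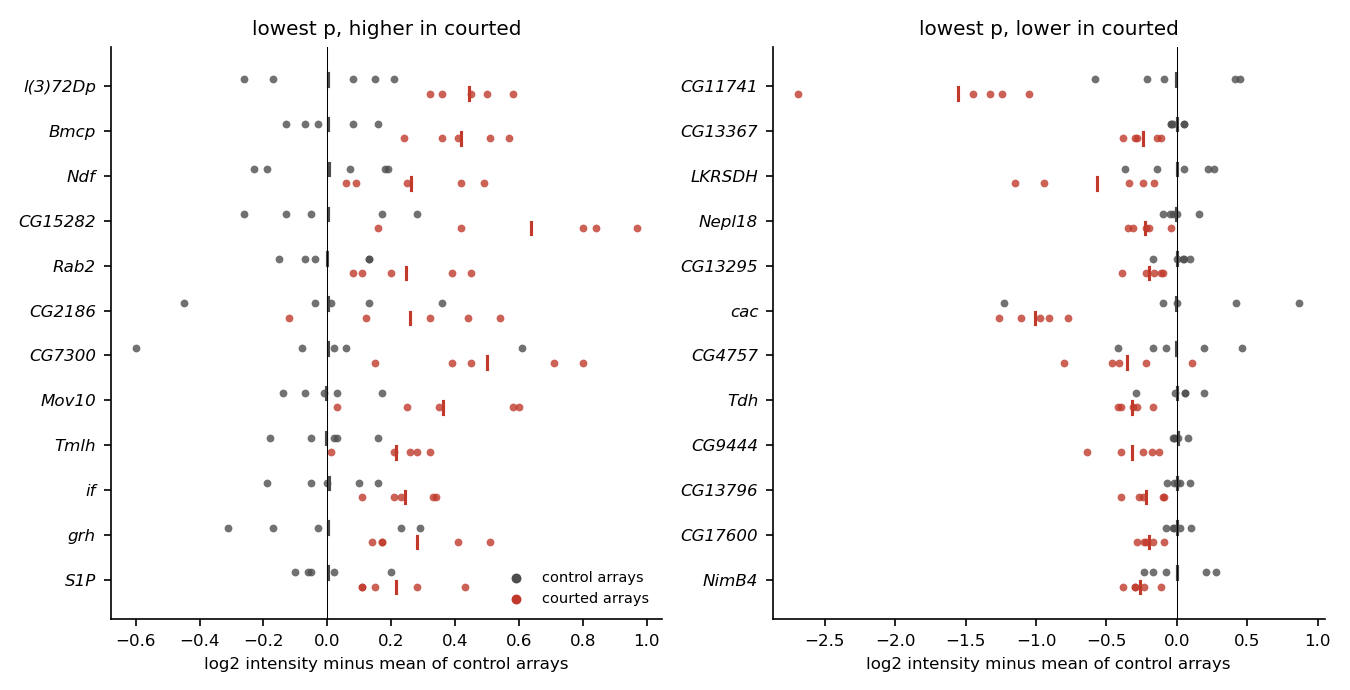
Log2 intensity of each control (grey) and courted (red) array minus the mean of the control arrays for the 12 genes with the lowest p that were higher (left) and lower (right) in courted heads; vertical bars mark group means. Groups are separate for l(3)72Dp and Bmcp on the left and for CG11741, CG13367, CG9444, CG13796 and CG17600 on the right, and the 2 horizontal scales differ.

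Large differences came from genes whose level varied between pools. All 13 probe sets with a difference above 1 log2 unit were lower in courted heads, and in 12 of them the groups overlapped. Obp83b (-2.76, SE 1.33) and Os-C (-2.65, SE 1.28), a protein of olfactory sensilla, had control ranges of 2.36 to 10.04 and 2.11 to 9.60, and both fell below the threshold once control replicates 2 and 3 were left out. So did CG13428 (-1.94, SE 0.65), with a control range of 3.56 to 10.08. Cyp4g1, the cytochrome P450 of the oenocytes that makes cuticular hydrocarbons, was at 5.99, 5.85, 9.56, 9.03 and 8.93 in control heads and at 2.65, 3.08, 9.04, 2.38 and 9.32 in courted heads. Courted replicates 3 and 5 were thus as high as the highest controls, and the difference of -2.58 had a confidence interval of -4.89 to -0.27 and was -1.85 without courted replicate 4. The metallothionein MtnD differed by -2.23 (SE 1.42), with 4.50 to 13.43 in control and 4.23 to 8.71 in courted heads. CG7920 (-1.27) and AMPdeam (-1.11), the adenosine monophosphate deaminase, differed by -0.03 and -0.11 without courted replicate 4, where CG7920 was at 5.83 against 10.33 to 12.89 in the other 9 arrays.

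Genes of sex determination, which set up the courtship circuit, showed no difference past the threshold. Of 7 measured, 2 were higher and 5 lower in courted heads, and 0 were at an unadjusted p under 0.05, with a median of -0.01 that was -0.05 without courted replicate 4. The fru transcript was at 9.72, 9.58, 9.66, 9.82 and 9.73 in control and 9.60, 9.73, 9.25, 9.71 and 9.62 in courted heads, a difference of -0.12 (95% confidence interval -0.32 to 0.08). For dsx the groups ran from 8.94 to 9.48 and from 8.70 to 9.15, a difference of -0.17 (-0.40 to 0.07). Other probe sets of both genes were below the threshold.

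Among genes of courtship learning, 9 of 11 were higher in courted heads, with a median of 0.06. The 2 lower ones were dnc (dunce), at -0.38 the largest difference of the list, and fru at -0.12. The share of all 6409 genes at an unadjusted p under 0.05 was 3.31%, for comparison with this list and those that follow. In this list the 1 member at that level was rut (rutabaga), the adenylyl cyclase of olfactory and courtship memory. It was at 7.40, 8.37, 7.60, 7.63 and 8.29 in control heads and at 7.92, 8.54, 7.90, 8.02 and 8.29 in courted heads. The difference was 0.28 (SE 0.08 with the replicate block, 0.20 without it) within overlapping groups. Without courted replicate 4, 6 of the 11 were higher and the median was 0.02. Of the genes induced by neuronal activity, 4 of 6 were higher and 0 at an unadjusted p under 0.05. Hr38, a nuclear receptor induced in active neurons, had the largest difference of them at 0.29 (95% confidence interval -0.08 to 0.65), with 8.17 to 8.67 in control and 8.44 to 9.18 in courted heads. Its highest value was that of courted replicate 4, and the difference was 0.17 without it.

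Neuropeptides were split evenly, with 11 of 20 higher (8 without courted replicate 4), a median of 0.01 and 2 at an unadjusted p under 0.05, both higher. Over all 6409 genes the share at that level was 3.31%. CCHa2, a peptide that signals nutrient state to insulin-producing cells, was at 12.24, 11.86, 11.98, 12.28 and 11.96 in control and 12.31, 12.09, 12.40, 12.29 and 12.26 in courted heads (difference 0.21, SE 0.07). For Dh31, a calcitonin-like diuretic hormone, control arrays ran from 11.54 to 11.90 and courted arrays from 11.63 to 11.98 (difference 0.13, SE 0.05). In both genes every courted array was above the control of its number, while the groups overlapped. Of 8 genes listed as neuropeptide receptors, 3 were higher and 5 lower. The lower ones included DopEcR (-0.36), which is listed among the amine receptors as well. AkhR, the receptor of adipokinetic hormone on fat body, differed by 0.13, and Pdfr, the receptor of the clock peptide PDF, by -0.21, each at an unadjusted p under 0.05.

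Genes of biogenic amine synthesis and transport were higher in 7 of 11 (median 0.03), and receptors of amines in 5 of 6 (median 0.08), with 0 at an unadjusted p under 0.05 in either list. The lower receptor was DopEcR, at -0.36. Of the receptors, 5-HT7, a serotonin receptor, had the lowest p, with a difference of 0.16 (-0.01 to 0.33). By MAS5.0, 3 of the 6 receptors were higher. The median of the receptors was highest among courted arrays in replicate 4, at 0.27 relative to the control mean, and their median difference was 0.03 without that array. Pu, which starts the synthesis of the pterin cofactor needed for amines, was higher in all 5 pairs, by 0.12.

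The senses were represented unevenly. None of the 25 odorant, 12 ionotropic and 18 gustatory receptor genes searched for was above the intensity threshold, the odorant co-receptor Orco being at 2.63 to 3.47, so these arrays give no comparison for them. Odorant-binding proteins were measured for 19 genes, 10 higher and 9 lower (median 0.01), or 13 higher with a median of 0.06 without courted replicate 4. Obp56g was the 1 at an unadjusted p under 0.05 (difference 0.12, SE 0.05), and Obp57c differed by 0.13. Obp69a, which differed by -0.77, was at 9.91 and 8.97 in control replicates 2 and 3 and at 6.80 to 7.73 in the other 8 arrays, and its difference was 0.05 without these 2 controls. The phototransduction genes, 20 measured, had a median of 0.00 with 11 higher and 9 lower.

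Synaptic and channel genes held close to 0 apart from cac. For transmitter release, 9 of 14 were higher (median 0.03), and the SNARE regulator cpx (complexin) differed by 0.16 and the vesicle GTPase Rab3 by 0.12, neither at an unadjusted p under 0.05. Of 12 ion channel genes 9 were lower, with a median of -0.01. Clock genes were lower in 8 of 11 (median -0.04), with per at -0.13 (-0.20 without courted replicate 4), tim at -0.12 (-0.21) and cyc at -0.17, and 0 at an unadjusted p under 0.05. The lowest cyc value, 8.52, was that of courted replicate 4, and the difference was -0.02 without it.

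In the fat body list 6 of 10 genes were higher and 4 lower (median 0.02), and 3 were at an unadjusted p under 0.05, where the share over all 6409 genes was 3.31%. The storage protein Lsp2 had control arrays at 13.08, 13.02, 13.14, 12.92 and 12.42 and courted arrays at 12.20, 12.32, 12.44, 12.32 and 12.74. In 4 of 5 pairs the courted array was lower, the exception being replicate 5, and the difference was -0.51 (SE 0.17, adjusted p = 0.988 in limma). Lsd-1, the perilipin of lipid droplets, differed by 0.26, with a control range of 12.42 to 13.03 and a courted range of 12.92 to 13.12. Apoltp, a lipoprotein that loads lipid onto lipophorin, differed by -0.12. The major lipoprotein apolpp had a mean of 14.61 in control and 14.65 in courted heads.

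Juvenile hormone, which acts on fat body and brain, is broken down by the esterase Jhe. Jhe was at 6.53, 6.21, 6.5, 6.31 and 6.98 in control and at 7.31, 6.93, 6.77, 7.39 and 6.45 in courted heads. The courted array was higher in 4 of 5 pairs, and the difference of 0.46 had a confidence interval of -0.07 to 0.99. Kr-h1, a transcription factor induced by the hormone, was at 10.27, 10.08, 9.46, 9.90 and 9.98 in control and 9.56, 9.68, 9.47, 9.76 and 9.11 in courted heads, a difference of -0.42 (SE 0.14) at an unadjusted p under 0.05. Of the 8 juvenile hormone genes measured 5 were higher and 3 lower, with a median of 0.03 (0.07 without courted replicate 4). Ecdysone genes were higher in 8 of 9 with a median of 0.08, and 0 were at an unadjusted p under 0.05. Courted replicate 4 had the highest median of this list, 0.224 relative to the control mean, and without it 7 of 9 were higher with a median of 0.03. Eip93F, a transcription factor of the ecdysone response, differed by 0.22, and by -0.04 without control replicates 2 and 3.

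Genes of insulin signalling and fasting were lower in 10 of 12 (median -0.05). The sugar-responsive transcription factor sug (sugarbabe) was at 8.81 to 9.40 in control and 8.67 to 8.92 in courted heads, a difference of -0.26 (SE 0.10) at an unadjusted p under 0.05. The glucosidase tobi, a target of adipokinetic hormone, differed by -0.26 (-0.55 to 0.02). Fatty acid oxidation genes were lower in 10 of 12 with a median of -0.07, with a median of -0.01 without courted replicate 4.

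Amino acid enzymes were divided, with 12 higher and 12 lower (median -0.01), or 14 higher with a median of 0.03 without courted replicate 4. Groups did not overlap in 2 of the 24, 1 in each direction, where over all 6409 genes courted arrays were all above control arrays in 24 and all below in 14. CG3999, the glycine decarboxylase of the glycine cleavage system, was at 8.49, 8.34, 8.14, 8.38 and 8.23 in control and 8.51, 8.70, 8.72, 8.63 and 8.90 in courted heads, a difference of 0.37 (SE 0.10). Oat, ornithine aminotransferase, was at 9.90, 9.94, 10.07, 9.93 and 9.86 in control and 9.83, 9.81, 9.78, 9.50 and 9.71 in courted heads, a difference of -0.21 (SE 0.07). Agxt, an alanine-glyoxylate aminotransferase, differed by -0.26 with overlapping groups.

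Genes of detoxification and defence showed small differences beside large variation among pools. Of 24 genes of oxidative defence and glutathione transfer, 18 were higher (median 0.03), and GstE3 was the 1 at an unadjusted p under 0.05 (0.16, SE 0.05). Over all 6409 genes 3.31% were at that level. Of 48 cytochromes P450, 23 were higher and 25 lower (median -0.01), with Cyp6a9 at 0.16 and Cyp309a1 at -0.26 beside Cyp4g1. Groups did not overlap in 1 of the 48, Cyp4e3, which is also among the study's genes lower after mating. It was at 8.77 to 9.04 in control and 7.96 to 8.75 in courted heads (-0.38, SE 0.15). Over all 6409 genes, courted arrays were below all control arrays in 14. Antimicrobial peptides were lower in 9 of 12, with a median of -0.09 that was -0.29 without courted replicate 4. The attacin AttD was at 13.31, 12.61, 5.39, 6.66 and 9.0 in control and at 8.69, 4.2, 10.20, 10.11 and 7.78 in courted heads. For the cecropin CecB the values were 10.30, 9.94, 3.95, 6.90 and 7.31 and then 7.75, 3.95, 6.34, 8.16 and 6.23. Each group thus held pools with high and with low peptide transcripts, and the confidence intervals were -5.83 to 3.43 around -1.20 for AttD and -3.97 to 1.59 around -1.19 for CecB. Without courted replicate 4 the differences were -1.68 and -1.61. The recognition protein PGRP-SB1, at 13.62 to 14.24 and 13.34 to 13.83, differed by -0.28 (SE 0.11), and 11 of the 15 genes of its list were lower (median -0.06, and -0.09 without courted replicate 4).

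Proteins of the mitochondrial ribosome, which translates the few proteins encoded in the organelle, were lower in 62 of 69 genes (89.9%), with a median of -0.06, while of all 6409 genes measured 3089 were lower (48.2%) with a median of 0.00. At an unadjusted p under 0.05 there were 3, all lower, against 127 higher and 85 lower among the 6409 genes. These were mRpL27, at 9.60, 9.38, 9.74, 9.73 and 9.52 in control and 9.35, 9.36, 9.40, 9.10 and 9.37 in courted heads (-0.28, SE 0.09), mRpL49 (-0.17) and mRpL17 (-0.12). Array by array, the median of the 69 genes relative to the control mean was 0.042, 0.002, 0.124, -0.051 and -0.106 in control replicates and -0.107, -0.069, 0.038, -0.003 and -0.126 in courted ones. The groups overlapped, and the difference between their means was of the order of the spread among control arrays. The genes of a list shared each array, so the count of lower genes is not a count of independent tests.

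Subunits of oxidative phosphorylation were lower in 42 of 46 (median -0.04, 0 at an unadjusted p under 0.05) and had the same extreme arrays among the 10, with control replicate 3 highest at 0.106 and courted replicate 5 lowest at -0.119. With dChip PM values 13 of the 46 were higher, in place of 4. Proteins of the cytosolic ribosome were lower in 26 of 33 (median -0.02), and with dChip PM values 15 were higher, in place of 7. Of the proteasome subunits 18 of 26 were lower (median -0.03) and of the heat shock genes 6 of 10 (median -0.01). Without courted replicate 4, 3 of 69 mitochondrial ribosomal genes and 4 of 46 oxidative phosphorylation genes were higher.

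**Figure D4:**
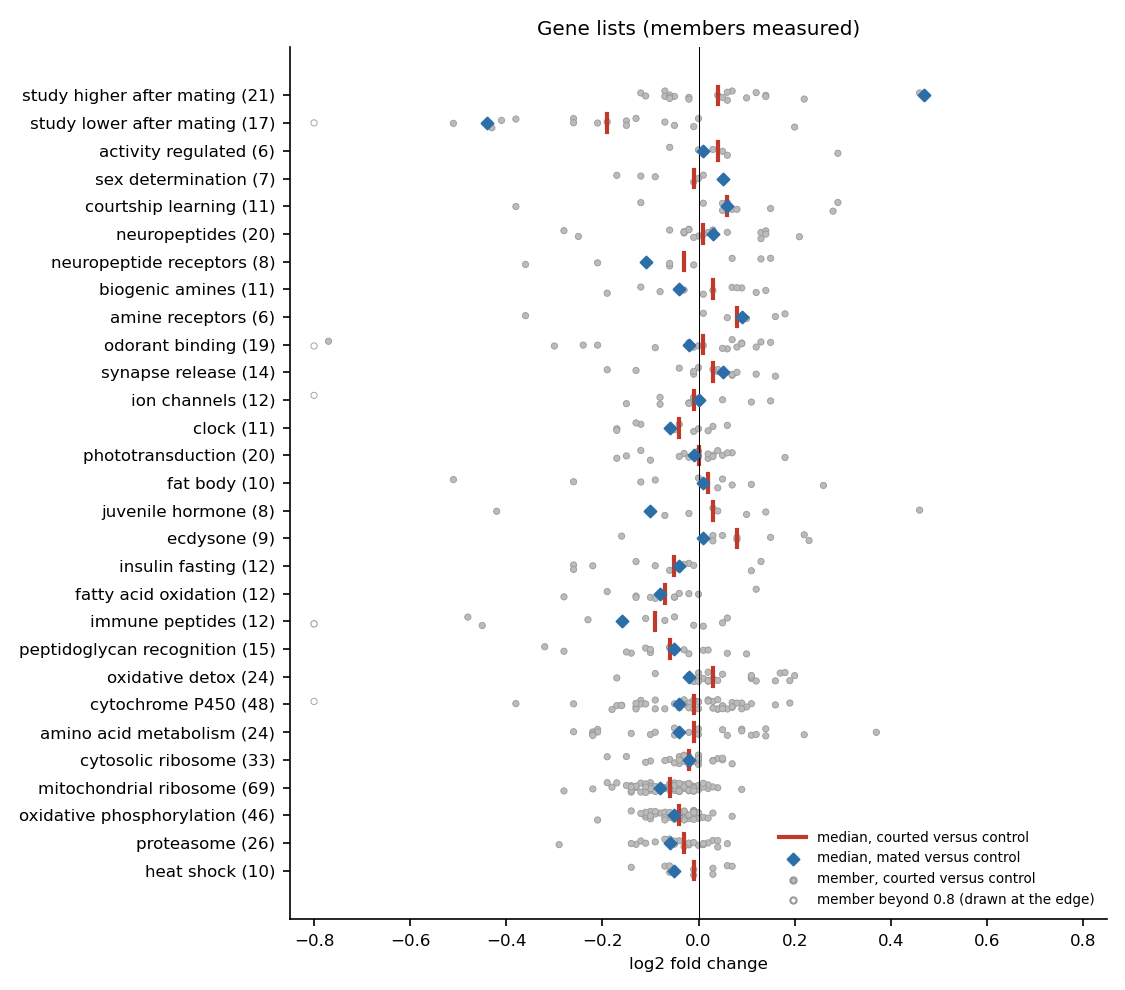
Log2 fold change of courted over control heads for each measured member (grey points) of 29 gene lists, with the list's median in red and the median for mated over control heads in blue; both comparisons use the same control arrays. The number of measured members is in parentheses and open points mark members beyond 0.8, drawn at the edge. Apart from the list of genes lower after mating (median -0.19), the red medians lie between -0.09 and 0.08.

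The genes that the study found to respond to mating were measured in courted heads as well. These lists were chosen by the study on the mated and control arrays of this series, and courted heads are compared with the same control arrays, so their values are given side by side and are not independent evidence. Of the genes higher after mating, 21 were measured. Their median was 0.04 for courted and 0.47 for mated over control heads, with 11 of the 21 higher in courted heads and 0 at an unadjusted p under 0.05. Without courted replicate 4 the courted median was 0.01. Of those lower after mating, 17 were measured, with medians of -0.19 and -0.44, and 15 were lower in courted heads, 6 of them at an unadjusted p under 0.05. Of the 2 higher ones 1 was at that level, smp-30, and over all 6409 genes the share at that level was 3.31%. Per array, the median of the 17 relative to the control mean was 0.017, 0.029, 0.208, 0.006 and -0.191 in control replicates, -0.145, -0.099, -0.160, -0.376 and -0.176 in courted replicates and -0.400 to -0.467 in mated replicates. Courted replicate 4 was the lowest of the courted arrays, and the median was -0.15 without it. Lsp2 (-0.51 courted, -0.41 mated), CG16898 (-0.41 and -0.82), Agxt (-0.26 and -0.44) and tobi (-0.26 and -0.52) were among these genes. The homeobox gene Dr (Drop) was at -0.43 and -0.67.

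Mated heads were also set directly against courted heads, in the fit of all 15 arrays, where the control arrays enter the estimates of spread and block. In this fit 4 of 7631 probe sets (0.0524%) differed between mated and courted heads at an adjusted p under 0.05, and 3 of 7631 (0.0393%) between mated and control heads. These calls depended on which arrays entered. For mated over courted heads, leaving out the arrays of 1 replicate number at a time gave 0 to 2 calls, and leaving out courted replicate 4 alone gave 2. Without the replicate block the calls numbered 4 as well, with CG16772 and CG3999 in place of CG13360 and CG30002.

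The largest of the 4 was smp-30, a calcium-binding protein of the regucalcin family. It was at 10.04, 9.96, 10.01, 9.97 and 9.75 in control heads, at 10.05, 10.05, 10.42, 10.06 and 10.14 in courted heads and at 9.43, 9.51, 9.35, 9.42 and 9.42 in mated heads. All mated arrays were below all courted and all control arrays, by a mean of 0.72 log2 units against courted (adjusted p = 0.0142 in limma) and 0.52 against control (adjusted p = 0.0555). Courted arrays were above all control arrays by a mean of 0.20 (SE 0.08, adjusted p = 0.988), and the second probe set differed by 0.15. With 1 replicate number left out, the adjusted p for mated over courted was 0.0569 to 0.155, and it was 0.0225 without courted replicate 4. Without the replicate block it was 0.000621 in limma, and the difference of mated from control heads was then called too.

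TBC1D5, a GTPase-activating protein for Rab proteins, was at 10.70 to 10.78 in courted and 11.09 to 11.37 in mated heads (difference 0.51, adjusted p = 0.0418 in limma). CG13360 was at 8.52 to 8.79 in courted and 8.86 to 9.18 in mated heads (0.42, adjusted p = 0.0400) and CG30002 at 10.78 to 11.05 and 11.17 to 11.38 (0.35, adjusted p = 0.0418). In all 3 the mated arrays were above every courted array. Courted and control heads differed by -0.12, -0.02 and -0.13 in these genes, with overlapping groups. Without courted replicate 4 the adjusted p rose to 0.113 for TBC1D5, 0.104 for CG13360 and 0.113 for CG30002. Without the replicate block it was 0.00767, 0.262 and 0.0914, so that only TBC1D5 of these 3 was called.

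The transcript fit, a secreted product of the head fat body, was called for mated over control heads (0.56, adjusted p = 0.0243 in limma). It was at 12.77, 12.75, 12.80, 12.73 and 12.52 in control, 12.69, 12.85, 13.03, 12.91 and 12.77 in courted heads and at 13.28 ± 0.18 (SD, n = 5) in mated heads. Courted heads were 0.14 above control heads (-0.02 to 0.29), with mated heads 0.43 above courted heads (adjusted p = 0.0859). CG13360 (0.40, adjusted p = 0.0422) and CG31689 (-0.38, adjusted p = 0.0243) were the other calls for mated over control heads. Without the replicate block their adjusted p was 0.204 and 0.0616 and neither was called. With 1 replicate number left out in turn, CG31689 was called in 0 of 5 fits, and CG13360 and fit in 1 each. Jhe followed the order control, courted, mated with means of 6.51, 6.97 and 7.66, where the SD was 0.29, 0.39 and 0.28, and neither the step from control to courted (adjusted p = 0.988) nor that from courted to mated (adjusted p = 0.733) passed the threshold.

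Other genes of the study's list stayed near control levels in courted heads. The acyl-CoA synthetase bgm (bubblegum) was at 10.92 to 11.40 in control, 10.87 to 11.38 in courted and 11.59 to 12.01 in mated heads. CG16772 was at 11.73 to 12.11, 11.66 to 12.28 and 12.30 to 12.87, and CG5618 at 11.39 to 11.85, 11.42 to 11.71 and 11.94 to 12.32. In all 3 the mated arrays were above all courted arrays, with adjusted p values for mated over courted of 0.067, 0.0862 and 0.114 in limma. CG16772 was called in some alternative fits of this comparison. These were the fits without the replicate block (difference 0.77), without courted replicate 4 (0.89) and without replicate number 4 (0.96). CG3999, which was not on the study's list, was highest in courted heads. These were at 8.69 ± 0.14 (SD, n = 5), with control heads at 8.32 ± 0.14 and mated heads at 8.12 ± 0.10. Its difference of mated over courted heads was called only without the replicate block (-0.58).

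**Figure D5:**
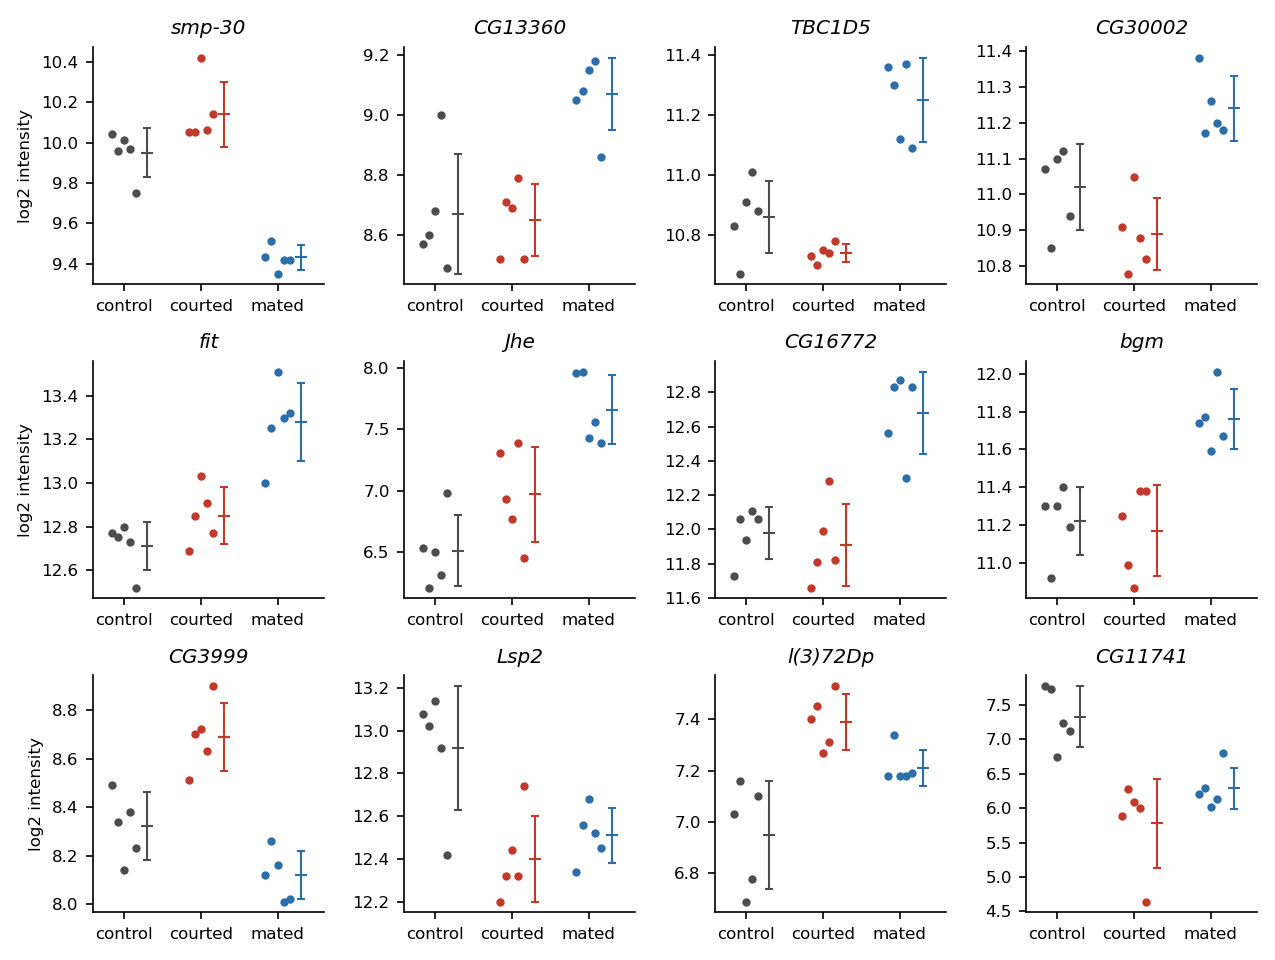
Log2 intensity (vertical axes, not starting at 0) in the 5 control, 5 courted and 5 mated arrays for 12 genes, with group means and SDs as bars. Mated arrays are below all others in smp-30 (9.35 to 9.51) and above all courted arrays in CG13360, TBC1D5, CG30002, bgm and CG16772, while courted arrays are separate from control arrays in smp-30, CG3999, l(3)72Dp and CG11741.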

How the data were processed

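Total RNA from pools of 30 male heads, extracted with Trizol, was hybridized by the authors to Affymetrix Drosophila Genome 2.0 arrays, 5 arrays in each group. The deposited table holds linear intensity values per probe set, which the authors made with dChip (PM and PM-MM), with MAS5.0, and with 2 forms of GC-RMA (R/Bioconductor, GeneSpring). GCOS 1.2 is listed in the submitters' processing notes, and versions of other programs were not given in the sources used here. All versions of 1 array formed 1 replicate. R/Bioconductor GC-RMA was the main set, the first 3 were alternatives, and the GeneSpring values were not used here. The number of arrays limits the precision.

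Of 18952 probe sets, 183 controls were left out. The array's annotation gave 1 gene for 13647, several for 402 and none for 4720, and only the first were named. Intensities under 1 were set to 1, and log2 values were analysed without further normalization for probe sets with a mean above 100 (dChip: 50). For genes with more than 1 probe set the brightest is given. Background correction by each algorithm moves low intensities most. Because GC-RMA and MAS5.0 set background differently, differences of dim probe sets can depend on the algorithm.

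Courted and control arrays were compared by lmFit and eBayes of limma 3.58.1 (R 4.3.3), two-sided, with replicate number as a block, p-values adjusted by Benjamini-Hochberg across the probe sets and a threshold of 0.05. All 15 arrays were fitted likewise for the mated groups. Alternatives were the fit without the block, each replicate left out, courted replicate 4 left out, the other algorithms, other filters, quantile normalization, limma-trend and a paired test modelled on Cyber-T, with regularized variances (window 101, confidence 10). A further 8 kinds of alternative were chosen after seeing the data. The script was tested on simulated data. Tables and figures used Python 3.11.15 with numpy 2.4.6, pandas 2.3.3 and matplotlib 3.10.9.

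Named genes are the 12 with the lowest p in each direction, up to 3 members with the lowest p of each of 54 gene lists (48 with a measured member) and a set of genes of interest. Members of lists outside this rule were named after their values were seen. The groups, lists and genes were chosen with earlier results of these data known. Lists are described by counts and medians, with no set test. All 15 arrays carry the same date in their labels, so no batch could be told apart.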

Additional observations from a re-analysis of the deposited data

Results flagged for a closer look

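Of the genes named, 4 differed between mated and courted heads at an adjusted p under 0.05 in the limma fit of 15 arrays, as described above. The differences of mated over courted heads were -0.72 log2 units for smp-30, 0.51 for TBC1D5, 0.42 for CG13360 and 0.35 for CG30002.

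In 21 of 252 groups of 5 arrays, over the genes named, the gap from the highest or lowest array to the nearest other one, as a share of the group's range, was above Dixon's 95% critical value of 0.71, where chance flags about 1 in 20 groups. Courted replicate 3 gave 5 of these, namely CG16898 at 9.43, fru at 9.25, AkhR at 12.19, GstE3 at 12.44 and smp-30 at 10.42 log2 units. Courted replicate 4 gave 3, with cyc at 8.52, mRpL27 at 9.10 and CG5618 at 11.42, all below the rest of the group. In the other courted arrays, cpx was at 14.17 in replicate 1, Obp83b at 2.67 in replicate 2 and CG11741 at 4.64 in replicate 5, where the nearest courted array was at 5.88. Among control arrays, replicate 5 was low for fit (12.52) and smp-30 (9.75) and replicate 3 for DptB, a diptericin (12.86). Among mated arrays, l(3)72Dp was at 7.34 and Obp83b at 4.61 in replicate 2, CG15282 at 8.18, Rab2 at 9.78 and per at 6.65 in replicate 3, tobi at 10.20 in replicate 1 and mRpL49 at 9.93 in replicate 4.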

How the results depend on the processing

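No probe set was called for courted over control heads under any of the 16 planned or 5 added alternatives (limma, or the paired test modelled on Cyber-T). Over 84 genes and these alternatives, 1746 of 1762 log2 fold changes kept their direction and 0 passed the threshold, and of 609 list medians 15 moved by more than 1 SD. The fit without the block, with all 15 arrays, with other filters or with limma-trend, and the paired test, left the group means unchanged. Under these no direction or list median could change, so the counts overstate how steady the values were. Many of the genes were also chosen for a low p in these same arrays. The number of probe sets at an unadjusted p under 0.05 was 252. It was 383 with all 15 arrays in the fit, 861 with dChip PM, 506 with dChip PM-MM, 543 without an intensity filter and 166 with the paired test modelled on Cyber-T. Leaving out 1 replicate number gave 145 to 313. In alternatives chosen after seeing the data it was 381 with array weights, 437 with all 15 arrays except courted replicate 4, and 148 without control replicates 2 and 3. The share that was higher, 62.3%, was 27.4% with dChip PM, 48.1% without courted replicate 4, 48.2% without replicate number 4, 48.3% with array weights, 41.4% with all 15 arrays except courted replicate 4, 37.7% with dChip PM and without that array, and 72.8% without replicate number 5. Probe sets differing in 1 direction in all 5 pairs numbered 418, and 1092 with dChip PM and 698 with dChip PM-MM, and those with no overlap 40, and 69 with dChip PM. Mated and control samples formed pairs by the study's methods. Courted and control arrays share replicate numbers and pool letters, but nothing states that these pair them. Same-number arrays had correlations of their deviations of 0.146, -0.247, 0.178, -0.300 and 0.314. Of the courted arrays, 0 of 5 correlated best with their own number. These correlations cannot show how the pools were collected. With no replicate block, 0 probe sets were called for courted over control and 181 were at an unadjusted p under 0.05. The median half-width was 0.19 in place of 0.18. The SE was 0.20 in place of 0.08 for rut and 0.16 in place of 0.05 for CG2186, but smaller for some genes, as 0.14 in place of 0.17 for Lsp2. The calls for mated over control heads were then 5 in place of 3, and 0 to 2 when 1 replicate number was left out. Those for mated over courted heads were 4 with 2 different members, 0 to 2 when 1 replicate number was left out, and 2 without courted replicate 4. Reversed directions were few. CG2186 was at -0.01 with dChip PM. Without control replicates 2 and 3, Obp69a was at 0.05 and Eip93F at -0.04. The clock gene cyc was at 0.10 with dChip PM, 0.01 with dChip PM-MM and, without courted replicate 4, 0.14 with dChip PM and 0.06 with MAS5.0. JhI-21 was at -0.003 with MAS5.0 and without courted replicate 4. CG31689 was at 0.07 with dChip PM-MM, and CG13360 at 0.02 with dChip PM, 0.01 with dChip PM-MM and 0.01 with array weights. With 1 replicate number left out, the ranges that crossed 0 were -2.09 to 0.01 for CecB, -2.70 to 0.60 for AttD, -0.11 to 0.05 for bgm, -0.05 to 0.03 for CG13360. The causes were not tested. On precision, probe sets below an intensity of 100 were left out, so nothing is said of transcripts near background, the chemoreceptors included.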
